A study of Bos taurus with 20 samples.

Results

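Fc receptors are proteins that bind the constant part of antibodies. The 8 cattle genes FCGR1A, FCGR2B, FCGR3A, FCER1A, FCER1G, FCGRT, FCAR and FCMR were taken by symbol and matched to Entrez identifiers with the NCBI cattle gene table, and all 8 were among the 37063 identifiers counted, of which 23163 had a count in any cow. Whole blood had been drawn at day 63 of gestation from 20 recipient cows, each carrying a female fetus from a single beef embryo produced in vitro with X-sorted semen, and each library was set against the birth weight (BW) of the calf born later. The methods text describes the recipients as lactating dairy cows, whereas the sample overview lists them as Angus, so their breed is not given here. All cows belonged to 1 group without untreated or non-pregnant animals, each contributed 1 library, and no sequencing batch is named in the labels, so p-values measure the spread between cows and values within a batch could not be given.

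Fc receptors link antibodies to blood cells. The receptors for IgG, IgE and IgA trigger uptake or killing of antibody-coated targets through a shared signalling chain that carries an activating tyrosine motif (ITAM), while an inhibitory IgG receptor carries an inhibitory motif (ITIM). The neonatal Fc receptor instead protects IgG from breakdown inside cells and moves it across cell layers, and the IgM receptor is found on B cells.

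Total counts were between 24632077 and 39892111 per cow, with a median of 33412740. In 190 pairs of libraries the counts differed by at least 12.7 in chi-square per degree of freedom, so no library was a repeat. Calf BW was 45.0 ± 10.1 kg (SD, n = 20), ranging from 30.0 to 72.5 kg. The cow of the 72.5 kg calf was left out of the slope analysis, as the study did, and BW was then 43.5 ± 7.97 kg (SD, n = 19). Levels are given as CPM, the count scaled to library size, after TMM normalization for library composition. They were not compared between genes, because transcript lengths were not used here. Whole blood is a mixture, so fewer cells of a type and less RNA per cell cannot be told apart. Markers of blood cells were present, with the neutrophil gene CSF3R at a median of 1840 CPM, the B cell gene MS4A1 at 316 CPM and the monocyte gene VCAN at 470.2 CPM.

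The activating IgG receptor FCGR1A, the high-affinity receptor of monocytes, was listed at a count of 0 in 20 of 20 cows. A count of 0 allows up to 3 counts per library, or 0.0752 to 0.122 CPM, for counting error only. In the ARS-UCD2.0 table the span of FCGR1A lies inside that of LOC788142, which held 123 to 360 counts per cow (4.42 to 9.20 CPM). Among 1248 protein-coding genes whose span lies inside another gene's span, 1151 (92.2%) were at 0 in all cows, compared with 2488 of 20418 (12.2%) of the others. Several genes that leukocytes use were at 0 and lie inside another span, namely IRF1, IFIT2, IFIT3, CXCL10 and CX3CR1. The part of the overlap in the count of 0 was not tested, so no level of FCGR1A is given. The slope of LOC788142 on calf BW was -0.0047 (log2 per kg, FDR = 0.842, edgeR quasi-likelihood test). The other 7 of the 8 genes passed the filter of at least 10 counts in at least 5 cows.

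FCGR3A, an activating IgG receptor of natural killer cells and monocytes, had 125 CPM in the lowest cow (46 kg calf), a median of 184 CPM and 269 CPM in the highest cow (37 kg calf). FCER1G, the signalling chain shared by several activating receptors, had 198 CPM in the cow of the 56 kg calf, a median of 318 CPM and 382 CPM in the cow of the 37 kg calf. The same cow was thus highest for both genes. FCGR2B, the inhibitory IgG receptor, varied least, from 84.7 CPM (56 kg calf) through a median of 113 CPM to 144 CPM (41.5 kg calf), with a coefficient of variation (CV) of 14.3%. FCGR2B overlaps MIR2285T and LOC112445926 in the gene table, so its counts may be affected by the overlap, in a direction that was not tested. FCGR3A had a CV of 21.0% and FCER1G one of 15.4%. No other gene span overlapped these latter genes, but a low-level relative, FCGR2A, had 0.467 to 1.62 CPM.

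FCER1A, the IgE-binding chain of the high-affinity IgE receptor, was between 6.07 CPM (53 kg calf) and 10.2 CPM (54 kg calf), with a median of 7.96 CPM. The cows at either extreme had calves of nearly equal BW. FCAR, the IgA receptor of myeloid cells, was the most variable of the 7, from 8.87 CPM in the cow of the 56 kg calf through a median of 25.7 CPM to 48.6 CPM in the cow of the 54 kg calf, a 5.48-fold range with a CV of 39.1%. Its biological coefficient of variation, 0.344, lay at the 76.5th percentile of all genes tested. The cows of the 50, 53, 55 and 72.5 kg calves had 42.9, 34.5, 39.4 and 32.5 CPM, and that of the 49.5 kg calf had 25.6 CPM. The cow of the 56 kg calf, with 8.87 CPM, was below all of these, and it also had the lowest monocyte marker score of the 20 cows (-2.38, mean z-score of the list).

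FCGRT, the neonatal Fc receptor, was lowest at 18.1 CPM in the cow of the heaviest calf, had a median of 28.9 CPM and reached 42.3 CPM in the cow of the 38 kg calf, a CV of 21.3%. FCMR, the IgM receptor, ranged from 127 CPM (55 kg calf) through a median of 176 CPM to 243 CPM, the value of the cow of the lightest calf, with a CV of 16.2%. The plot of CPM against calf BW shows all 20 cows for each gene.

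**Figure D1:**
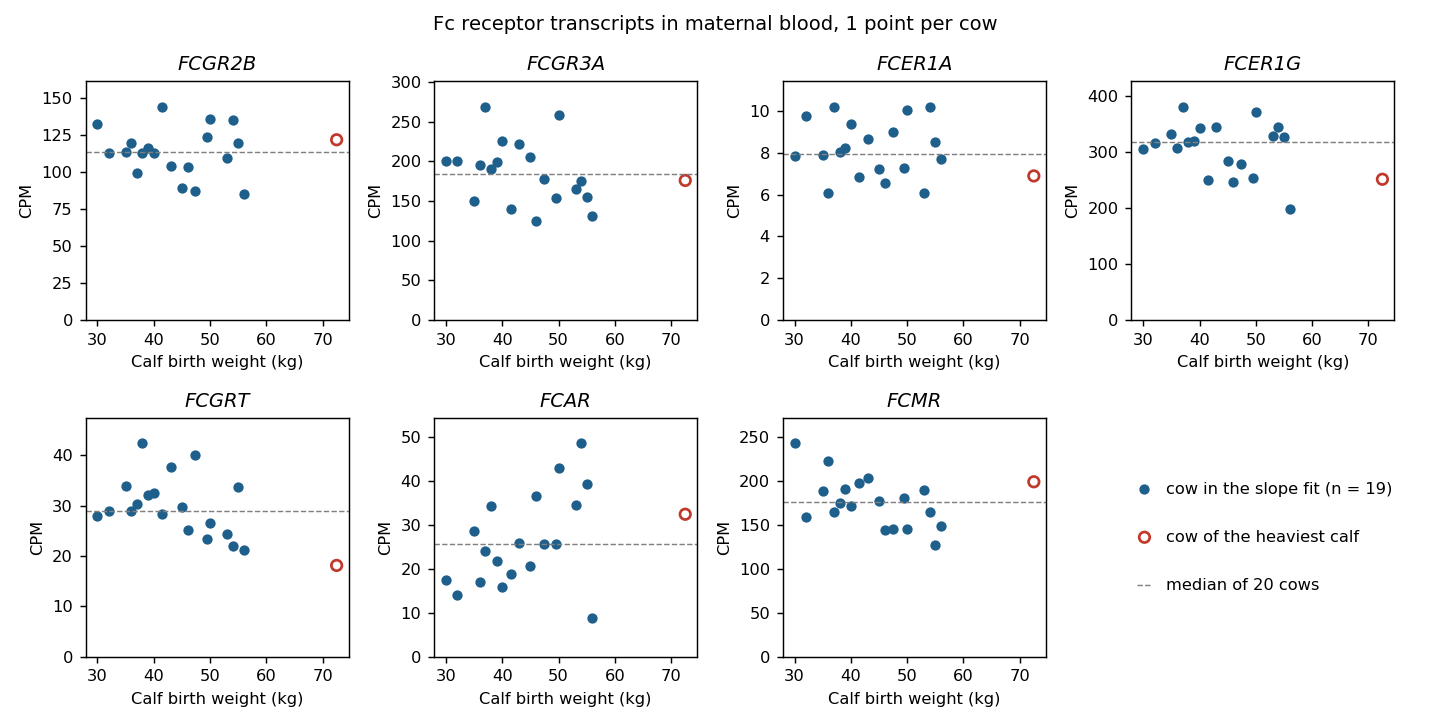
Level of 7 Fc receptor genes (CPM, vertical axis from 0) against calf birth weight (kg), 1 point per cow, with the cow of the 72.5 kg calf as an open circle and the median of 20 cows dashed. FCMR was highest in the cow of the 30.0 kg calf (243 CPM), and FCAR lay between 8.87 and 48.6 CPM.

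The association with calf BW was tested as a slope on the log2 scale per kg in 19 cows. None of the 7 genes had an FDR below 0.05 with edgeR's quasi-likelihood test, as 0 of 16206 genes did (0%), or with DESeq2, which called 189 of 23087 genes (0.819%). At an unadjusted p below 0.05, 2 of the 7 genes passed with edgeR, against 13.9% of all genes. These were FCMR, with a negative slope (7.08% of all genes), and FCAR, with a positive slope (6.78%). Slopes were negative for 6 of the 7 genes, whereas 8662 of 16206 genes had a negative slope. The median slope was -0.0074 for the 7 genes and -0.00072 for all genes. The 7 measured genes of 8 listed monocyte markers all had negative slopes too, with a median of -0.0088, none with an unadjusted p below 0.05, and their summed level ranged from 622 to 1351 CPM. With the monocyte score as a covariate the slope of FCER1A was 0.0023, that of FCER1G -0.00043 and that of FCGR3A -0.0079, while FCMR had -0.018 and FCAR 0.041. In the same fit FCGRT had -0.0097 and FCGR2B -0.0016. The part of monocytes in these slopes was not tested further.

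FCMR had a negative slope on calf BW of -0.018 ± 0.0054 (SE, n = 19 cows in the edgeR fit, FDR = 0.174), which is a change of -11.8% per 10 kg. It ranked 308th by p among all genes tested, and the FDR was 0.0730 with DESeq2. Cows of the 30.0 and 36 kg calves were highest, with 243 and 223 CPM, and those of the 55 and 46 kg calves lowest, with 127 and 145 CPM, although the cow of the 53 kg calf had 190.4 CPM. With the cow of the 72.5 kg calf, which had 199 CPM, the slope was -0.0070 (p = 0.142 in the edgeR fit). Leaving out each of 19 cows gave slopes from -0.022 to -0.014, with an unadjusted p below 0.05 in 19 of 19 fits. Of 22 listed interferon-stimulated genes 18 were measured, and all 18 had a negative slope in the same cows. In the edgeR fit 15 of them had an unadjusted p below 0.05, whereas 7.08% of all genes had such a p with a negative slope, and 0 had an FDR below 0.05, while 5 passed the FDR with DESeq2. Their summed level ranged from 855 to 5462 CPM, and IFIT2 and IFIT3 were at 0. With the score of this list as a covariate the slope of FCMR was -0.0097 (p = 0.104 in the edgeR fit). The cow of the 30.0 kg calf, highest for FCMR, also had the highest score (3.16), and the next was 0.68 (37 kg calf). The part of these genes in the FCMR slope was not tested further. With the B cell score as a covariate the slope was -0.015 (FDR = 0.161 in the edgeR fit), and with the natural killer cell score -0.016 (FDR = 0.102).

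FCAR had a positive slope on calf BW of 0.036 ± 0.015 (SE, n = 19 cows in the edgeR fit, FDR = 0.287), a change of 28.1% per 10 kg. The slope was 0.049 (FDR = 0.178 in the edgeR fit) when the 56 kg calf's cow, the lowest for FCAR, was left out, and leaving out the highest, that of the 54 kg calf, gave 0.028 (unadjusted p = 0.0920 in the edgeR fit). The unadjusted p was below 0.05 in 15 of 19 such fits. With the interferon-stimulated score as a covariate, the slope was 0.028 ± 0.018 (SE, p = 0.147 in the edgeR fit). FCAR thus stayed on the positive side in these fits but did not pass the unadjusted threshold in all of them.

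FCGRT, FCGR3A and FCER1G had negative slopes that did not pass. Those of FCGRT and FCGR3A were -0.015 ± 0.0076 and -0.015 ± 0.0083 (SE, n = 19, edgeR FDR = 0.413 and 0.443), and that of FCER1G was -0.0074 ± 0.0063 (FDR = 0.655). The slope of FCER1G was -0.0014 (p = 0.804 in the edgeR fit) when the 56 kg calf's cow was left out, and that of FCGR3A was -0.011. For FCGR2B the slope was -0.0040 ± 0.0061 and for FCER1A -0.0015 ± 0.0070, each smaller than its SE. With all 20 cows, FCGRT had a slope of -0.018 (unadjusted p = 0.00496 in the edgeR fit, FDR = 0.223), while 13.4% of all genes had an unadjusted p below 0.05 and 0.0246% an FDR below 0.05. The added cow had both the heaviest calf and the lowest FCGRT level, so it lay at the end of both measures.

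**Figure D2:**
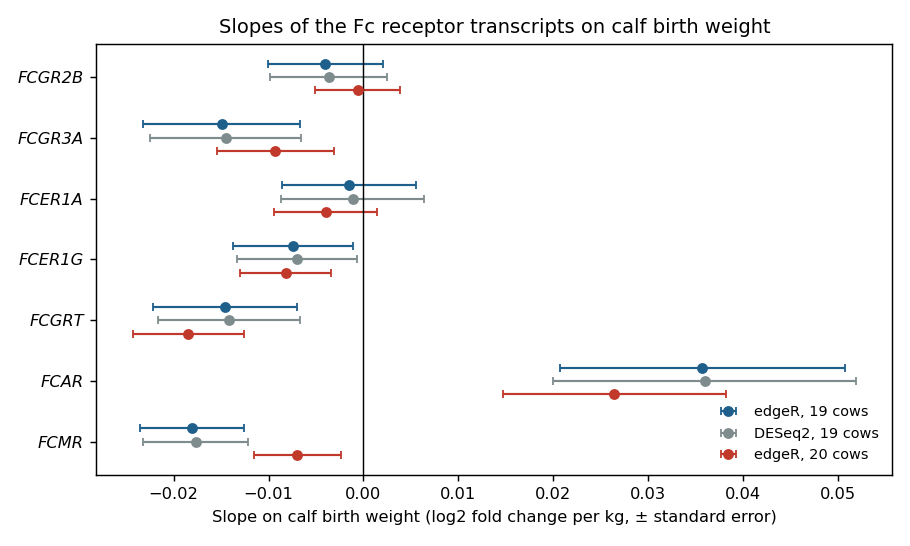
Slope of each gene on calf birth weight (log2 fold change per kg, horizontal axis; bars are ± 1 SE) in the edgeR fit of 19 cows, the DESeq2 fit of 19 cows and the edgeR fit of 20 cows. FCMR moved from -0.018 with 19 cows to -0.0070 with 20, and FCAR was the gene with a positive slope.

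Correlation of log2 CPM with calf BW was also computed over all 20 cows. At an unadjusted p below 0.05, FCGRT passed (r = -0.60, permutation p = 0.00491, adjusted p = 0.243, Spearman rho = -0.49, permutation p = 0.0282), against 13.3% of all genes. Without the cows of the 30.0 and 72.5 kg calves its r was -0.49, and without the latter alone -0.42 (permutation p = 0.0714). FCAR had r = 0.36 (permutation p = 0.120) and rho = 0.48 (permutation p = 0.0358). Its r was 0.64 (permutation p = 0.00245) without the 56 kg calf's cow, the highest r after any single removal. The lowest was 0.29 (permutation p = 0.221), without the 32 kg calf's cow. With the cows of the 30.0 and 72.5 kg calves both removed, the r of FCAR was 0.30. FCMR had r = -0.32 (permutation p = 0.164) and rho = -0.37 (permutation p = 0.103), and r was -0.59 (permutation p = 0.0078) without the 72.5 kg calf's cow. Without the cow of the 30.0 kg calf, highest for FCMR, r was -0.19 (permutation p = 0.439). No gene in the whole table had an adjusted p below 0.05 (0%).

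Co-variation among the 7 genes was examined over 21 pairs. Each of the 7 genes was correlated with every gene passing the filter, 113855 relations in all, and p-values were adjusted over all of them; 0.947% had an adjusted p below 0.05 and 14.7% an unadjusted p below 0.05. FCGR3A and FCER1G, the IgG receptor and the chain that signals for it, varied together (r = 0.74, permutation p = 0.00015, adjusted p = 0.0282, rho = 0.61, permutation p = 0.00519), and this was the only pair of the 21 with an adjusted p below 0.05. Without the 2 cows farthest from the median of FCGR3A, r was 0.67. With both genes taken as residuals from the monocyte marker score, a choice made after the values were seen, r was 0.49. In comparison, 55 genes had a higher r to FCGR3A than FCER1G did.

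FCER1A, which binds IgE together with the same chain, correlated with FCER1G (r = 0.54, permutation p = 0.0131, adjusted p = 0.200, rho = 0.66, permutation p = 0.00175) and FCGR3A (r = 0.56, permutation p = 0.0103, adjusted p = 0.182, rho = 0.55, permutation p = 0.0127). FCER1G correlated with FCGRT (r = 0.45, permutation p = 0.0450, adjusted p = 0.326, rho = 0.35, permutation p = 0.128). These 3 pairs passed without adjustment but not with it. FCMR had r = -0.06 with FCGRT (permutation p = 0.805) and the lowest r of the 21 pairs with FCER1A (-0.43, permutation p = 0.0608).

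**Figure D3:**
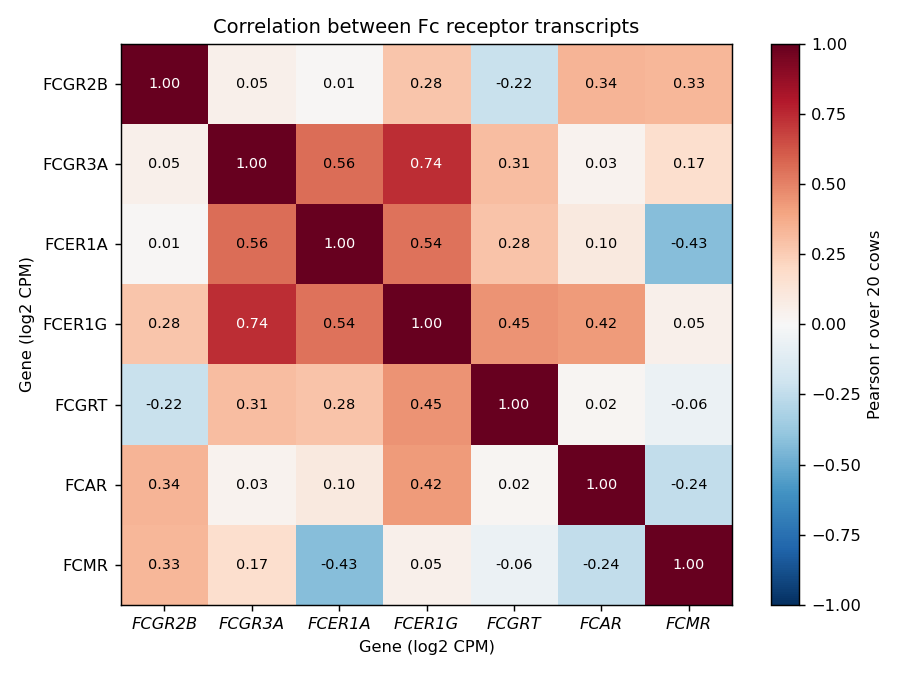
Pearson correlation of log2 CPM between 7 Fc receptor genes over 20 cows, in the colour scale at the right. The highest value is 0.74 between FCGR3A and FCER1G, followed by 0.56 between FCGR3A and FCER1A.

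The genes were then set against marker scores of blood cell types and interferon responses. A score is the mean z-score of the log2 CPM of the genes of a list, and 77 relations between the 7 genes and 11 lists were computed, with p-values adjusted over the 178959 relations of all genes with the scores. At an unadjusted p below 0.05, 20 of the 77 passed against 12% of all relations, and at an adjusted p below 0.05, 1 of the 77 passed against 1.19%. That relation was between FCER1G and the monocyte score (r = 0.88, permutation p = 1e-05, the smallest the permutations can give, adjusted p = 0.00336, rho = 0.82, permutation p = 1e-05). Without the 2 cows farthest from the median score its r was 0.82. FCER1G also correlated, without passing adjustment, with the neutrophil score (r = 0.64, permutation p = 0.00203, adjusted p = 0.101), the platelet score (r = 0.58, permutation p = 0.00796, adjusted p = 0.198) and the erythroid score (r = 0.50, permutation p = 0.0230, adjusted p = 0.309). The monocyte list was led by VCAN and CD68 at medians of 470.2 and 240.0 CPM, and CX3CR1, which lies inside another span, was at 0. FCER1G also followed CD14, a monocyte gene of that list (r = 0.83, permutation p = 3e-05, adjusted p = 0.0125, rho = 0.68, permutation p = 0.00137).

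The relations of the other receptors with the scores passed without adjustment at most. FCGR3A had r = 0.64 with the monocyte score (permutation p = 0.00169, adjusted p = 0.0907, rho = 0.45, permutation p = 0.0479) and 0.36 without the 2 farthest cows. No relation was detected with the natural killer cell score (r = 0.16, permutation p = 0.506) or with CD247, a chain that pairs with it in natural killer cells (r = -0.32, permutation p = 0.175). FCMR correlated with the B cell score (r = 0.68, permutation p = 0.00109, adjusted p = 0.0709, rho = 0.71, permutation p = 0.00065). It was opposite to the natural killer cell score (r = -0.69, permutation p = 0.00072, adjusted p = 0.0558, rho = -0.76, permutation p = 0.0001). FCMR had r = 0.59 with the interferon-stimulated score (permutation p = 0.00456, adjusted p = 0.152), and without the cow of the 30.0 kg calf r was 0.40. That score was itself correlated with calf BW over 20 cows (r = -0.57, permutation p = 0.0175). The r of the B cell score with BW was not distinguishable from 0 in the same cows (r = -0.01, permutation p = 0.964). In the 19 cows of the slope analysis, r was -0.53 (permutation p = 0.00943) for the interferon-stimulated score and -0.17 (permutation p = 0.475) for the B cell score. The cow of the 30.0 kg calf had an interferon-stimulated score of 3.16, and the next highest was 0.68 (37 kg calf). This cow thus lay at the end of both measures, and r with BW without it was not tested. The 8 B cell markers all had negative slopes in those 19 cows, with a median of -0.0077. None of these slopes had an unadjusted p below 0.05 in the edgeR fit.

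FCGR2B correlated with the B cell score (r = 0.57, permutation p = 0.00869, adjusted p = 0.206), the neutrophil score (r = 0.54, permutation p = 0.0153, adjusted p = 0.262) and the basophil and mast cell score (r = 0.49, permutation p = 0.0278, adjusted p = 0.333), and was opposite to the T cell score (r = -0.58, permutation p = 0.00734, adjusted p = 0.191). The basophil and mast cell score held 5 of the 7 listed genes. FCER1A, known from basophils and mast cells, had no detected relation with the score of those cells (r = 0.00, permutation p = 0.983) or with MS4A2, another chain of the IgE receptor (r = -0.09, permutation p = 0.717), which had 14.5 to 32.3 CPM. Its highest r among the scores was with the platelet score (r = 0.62, permutation p = 0.00259, adjusted p = 0.114, rho = 0.73, permutation p = 0.00041). FCAR correlated with the neutrophil score by Pearson (r = 0.46, permutation p = 0.0422, adjusted p = 0.388) but not by rank (rho = 0.40, permutation p = 0.0867). Without the 56 kg calf's cow its r was 0.37. FCGRT had r = 0.45 with the monocyte score (permutation p = 0.044, adjusted p = 0.393), and 0.31 without the 2 farthest cows. No relation was detected between FCGRT and B2M, the light chain of FCGRT (r = -0.12, permutation p = 0.628). The 2 most abundant markers were CD3E and CD5 for T cells (medians of 218 and 119 CPM), TUBB1 and PF4 for platelets (387 and 235 CPM), KLRD1 and NCR1 for natural killer cells (49.2 and 48.9 CPM) and MS4A1 and CD79B for B cells (316 and 179 CPM).

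**Figure D4:**
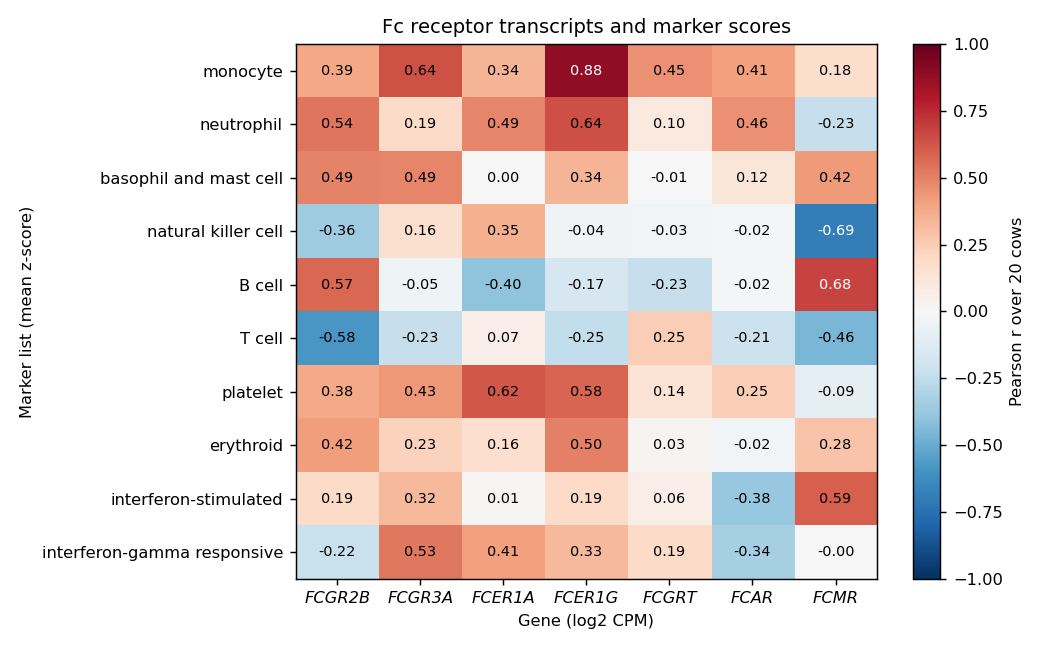
Pearson correlation over 20 cows between 7 Fc receptor genes (log2 CPM) and 10 of the 11 marker scores, in the colour scale at the right; the eosinophil list had 1 measured gene and is not drawn. The highest value is 0.88 (FCER1G with the monocyte score) and the lowest -0.69 (FCMR with the natural killer cell score).

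The genes whose levels were most like each receptor were taken as the 3 with the highest r over 20 cows, so these r values are descriptions. FCER1G was closest to EMILIN2 (0.93), FTL (0.92), a ferritin chain, and SLC25A10 (0.91). Genes close to FCGR3A were LOC100850659 and LOC132342082 (0.84 each). For FCGR2B the closest were APPL2 (0.88), LOC512005 (0.85) and LOC112445930 (0.85), and for FCER1A EMILIN1 (0.81), LOC527826 (0.79) and ISCU (0.79).

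FCGRT was closest to SLC25A20 (0.91), the mitochondrial carnitine carrier, DDX47 (0.85) and CHMP6 (0.84). FCAR was closest to PLAUR (0.76), the urokinase receptor, PLA2G15 (0.74) and LOC101906408 (0.72). FCMR was closest to LOC510377 (0.87), ANKRD16 (0.86) and LOC515418 (0.85). Over the whole table, 621 genes had an adjusted p below 0.05 with FCER1G and 191 with FCGR3A, compared with 80 for FCMR, 77 for FCGR2B, 66 for FCGRT, 35 for FCER1A and 8 for FCAR.

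**Figure D5:**
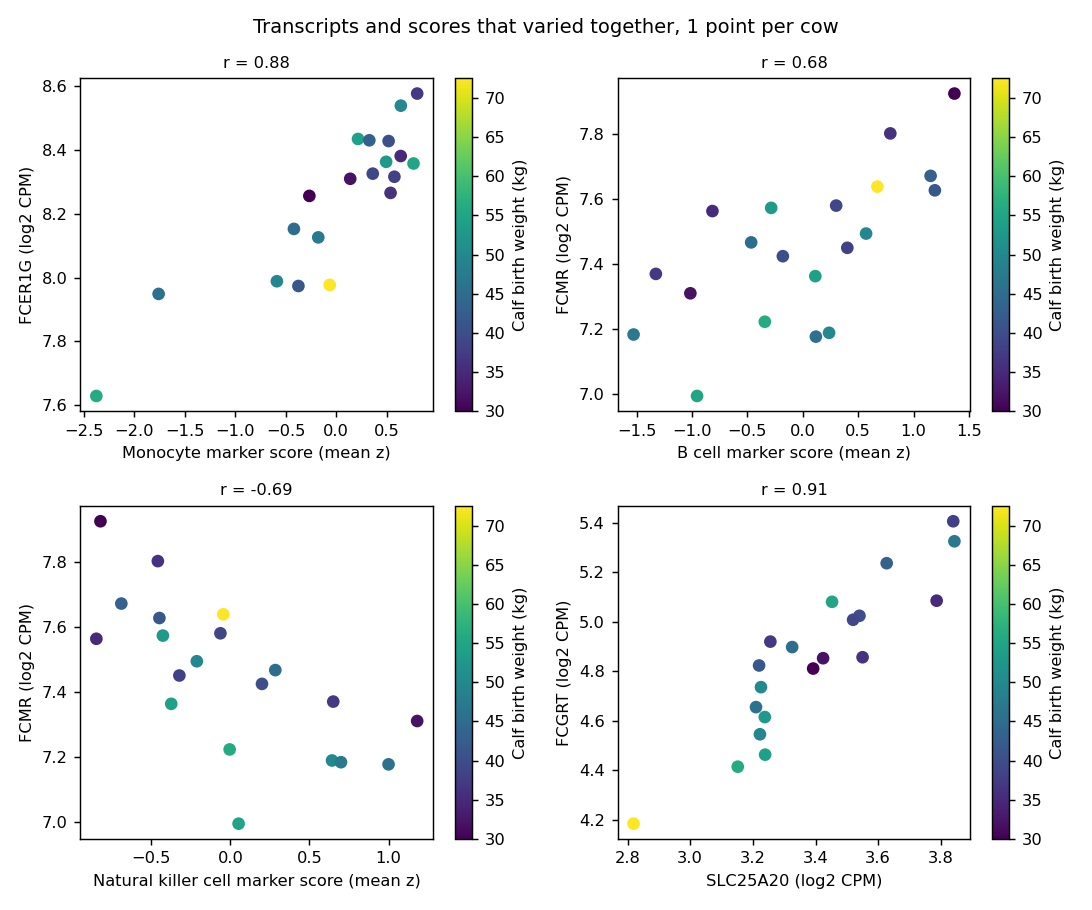
Scatter of FCER1G against the monocyte score, FCMR against the B cell and natural killer cell scores, and FCGRT against SLC25A20 (log2 CPM; scores as mean z), 1 point per cow coloured by calf birth weight (kg). The r values are 0.88, 0.68, -0.69 and 0.91.

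Other genes of the pathway were described from 3 lists. Of 14 tested relatives of the Fc receptors, 0 had an FDR below 0.05 (against 0% of all genes) and 0 an unadjusted p below 0.05, and the median slope was -0.0047. The smallest p belonged to FCRL3, an Fc receptor-like gene of lymphocytes (slope -0.014 ± 0.0083, edgeR FDR = 0.464), followed by FCRL6 (0.053, FDR = 0.481) and TRIM21, a cytosolic antibody receptor (-0.0051, FDR = 0.629). Of 25 ITAM signalling genes 12 had a positive slope and 13 a negative slope, and 0 passed the FDR. An unadjusted p below 0.05 was found for 3 of the 25, a smaller share than the 13.9% of all genes. All 3 were positive (6.78% of all genes). These were the kinase BTK (0.014 ± 0.0053, FDR = 0.248), PIK3R1 (0.0044, FDR = 0.290) and the adaptor LCP2 (0.0046, FDR = 0.345). Of 15 inhibitory signalling genes 10 had a positive slope, whereas 7544 of 16206 genes had one, and 0 passed the FDR. At an unadjusted p below 0.05, 2 passed (13.3%, against 13.9% of all genes), both positive (6.78% of all genes). These were the ubiquitin ligases CBLB (0.011 ± 0.0041, FDR = 0.238) and CBL (0.0063, FDR = 0.311), and the next was the adaptor DOK1 (-0.0058, FDR = 0.420).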

How the data were processed

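RNA of whole blood was sequenced from 20 cows at day 63 of gestation. Reads were trimmed by the authors (Trimmomatic), mapped with STAR 2.7.0b on an ARS-UCD1.3 index and assigned to genes with featureCounts of Subread 2.0.3, and the deposited values are raw counts by Entrez identifier, without normalization. The library kit differs between sources, TruSeq stranded mRNA in the paper and SMARTer Stranded in the labels. The strand setting and the handling of multi-mapped reads are not given in the sources used here. Gene names were looked up in an ARS-UCD2.0 table, so no coordinates are printed.

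From the counts, the slope on calf BW in kg was fitted in 19 cows with edgeR 4.0.16 (R 4.3.3), TMM normalization and the quasi-likelihood test, for the 16206 genes that reached 10 counts in 5 or more cows, and p-values were adjusted by Benjamini-Hochberg over all of them (FDR). DESeq2 1.42.0 and limma 3.58.1 with voom were alternatives, as were other size factors, filters, BW ranks, covariates and leaving out each cow. Correlations used log2 CPM with a prior count of 2 over 20 cows and 16269 genes, with two-sided permutation tests of 100000 resamples. P-values for marker scores were adjusted over all genes and scores, a wider family than the planned one. The fits were tested on simulated data. Genes named are the 8 receptors, the 3 genes of smallest p in each pathway list, the 3 closest to each receptor and the 2 most abundant markers; partner genes of the receptors and the genes at a count of 0 were chosen after values were seen. A few genes that this rule names are not reported here. The receptors and lists were chosen with earlier results of these data known. Python 3.11.15 with numpy 2.4.6, pandas 2.3.3, scipy 1.17.1 and matplotlib 3.10.9 was used.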

Additional observations from a re-analysis of the deposited data

How the results depend on the processing

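The FDR count of the 7 measured receptors was 0 in every alternative run for it, DESeq2 and leaving out each cow included (0 to 0). The counts of the 3 pathway lists were 0 with DESeq2, DESeq2 size factors, any count, 20 cows, BW ranks and leaving out each cow (0 to 0), the alternatives run for them. The number with an unadjusted p below 0.05 was 2 and became 1 with limma and voom (FCMR) and 1 with the interferon-stimulated score as a covariate (FCGRT), and 3 with the B cell score (FCGRT added). With all 20 cows it was 2, FCAR and FCGRT. Leaving out each cow gave 1 to 3. The slope of FCER1A turned to 0.0023 with the monocyte score as a covariate, and leaving out each cow gave -0.0055 to 0.0018; for FCGR2B this range was -0.0074 to 0.00026, and for its correlation with BW -0.16 to 0.082. Relations with marker scores at an adjusted p below 0.05 were 1 and became 2 on variance-stabilized counts, where FCMR with the natural killer cell score was added (r = -0.70, adjusted p = 0.0484, permutation test). Leaving out each cow gave 1 to 2 genes correlated with BW without adjustment, 3 to 5 pairs and 17 to 22 marker relations. The causes were not tested. Of the other results recomputed, 845 kept their direction and side of the threshold or, for median levels, stayed within 1 SD. The threshold was lost by 68 and gained by 11. Single pairs and marker relations entered this tally only where their reported unadjusted p was below 0.05, so they could not add to the gains. No paired analysis was possible because all cows belonged to 1 group. Depth behind the values was at least 169 counts per cow for FCER1A and 228 for FCAR.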

Other observations

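Beyond the 3 closest genes, FCGRT had high r with CPT1A, the carnitine palmitoyltransferase of the outer mitochondrial membrane (r = 0.78, rho = 0.77, n = 20), and with PDK4, which restrains pyruvate oxidation (r = 0.76, rho = 0.75). FCMR had high r with BLNK (r = 0.82, rho = 0.88), POU2AF1 (r = 0.80, rho = 0.78) and BTLA (r = 0.80, rho = 0.77). These genes were chosen after their values were seen and for their high r, so the values are descriptions and no theme was tested. FCGRT was opposite to IL5RA, the only measured gene of the eosinophil list (r = -0.49, permutation p = 0.0286, adjusted p = 0.336). Without the 2 cows farthest from the median of that score, r was -0.38. IL5RA itself rose with calf BW over 20 cows (r = 0.50, permutation p = 0.0256, rho = 0.60, permutation p = 0.0052). In that correlation 13.3% of all genes had an unadjusted p below 0.05.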
